A study of Mus musculus with 20 samples.

Results

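Astrocytes that respond to injury or inflammation are called reactive. They raise the intermediate filament proteins GFAP and vimentin, and with them a set of surface receptors, matrix proteins and enzymes. A set of 10 such genes, chosen as a list from earlier work on mouse reactive astrocytes, were followed here in the hippocampus, where GFAP-bearing astrocytes are found in every layer. The 10 genes are Gfap, Vim, Cd44, Timp1, S1pr3, Aspg, Emp1, Fbln5, Ggta1 and Srgn, out of 49671 genes in the count tables, and each of the 10 was among the 18427 genes with enough counts to be tested. In that earlier work Gfap, Vim, Cd44, Timp1, S1pr3 and Aspg belonged to a programme shared by different injuries, Fbln5, Ggta1 and Srgn were described after lipopolysaccharide, and Emp1 after ischaemia.

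RNA came from the hippocampus of wild-type male mice aged 10 to 12 weeks, with 5 mice in each of 4 groups. Control mice received isotype-matched antibody. ICI mice received the immune checkpoint inhibitors anti-CTLA-4 (1 mg, given 3 times weekly) and anti-PD-1 (200 µg, given 2 times weekly). Melanoma mice received D4M-3A.UV2 cells, a melanoma line of the mouse's own background, into the skin on both sides (500000 cells per injection), and isotype antibody from 1 week later, while melanoma plus ICI mice received the same cells and both inhibitors, for 3 weeks. All mice were killed 72 hours after the last injection. The tumours grew in the skin and came from 1 cell line, so the hippocampus was a distant organ in both tumour groups. Because whole tissue was sequenced, a lower level can mean fewer cells of a type or less RNA per cell, and these cannot be told apart.

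The libraries held between 21990624 and 25735149 counts. The labelled tissue carried its astrocytes: all 14 listed astrocyte markers, among them Slc1a2, Slc1a3, Aqp4 and Aldh1l1, were tested and none was at 0 in any library. Levels are given as CPM, counts scaled to each library's total after TMM adjustment. The summed level of the 14 lay at 5601 to 6516 CPM in control, 5672 to 6240 in ICI libraries, 5758 to 6665 with melanoma and 5417 to 6983 with both. None of the 14 passed the adjusted threshold in any comparison. Markers of the striatum, another brain region, differed between libraries. The 8 striatal markers summed to 131.2 to 1296 CPM (median 515.3) in melanoma libraries, 136.9 to 670.5 with both treatments, 146.1 to 195.3 in control and 129.4 to 174.2 with ICI. All 8 had higher values in melanoma than in control, each at an unadjusted p under 0.05 by edgeR, and none passed the adjusted threshold. Every melanoma against control value given here rests on those libraries, and the part of striatal tissue in those for S1pr4 and Osmr was not tested. Choroid plexus markers ran over a wider range. The 9 summed to 34.01 to 6273 CPM in control, 22.74 to 2238 with ICI, 44.8 to 3715 with melanoma and 70.01 to 6677 with both. All 9 were lower in ICI and in melanoma than in control, none at an unadjusted p under 0.05 by edgeR. In the interaction, explained below, all 9 were above 0 (median log2 fold change 2.76), 3 at an unadjusted p under 0.05, beside 10.3% of all genes.

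Upstream sequences are shown for 4 of the genes: Gfap, the most abundant, Vim and Emp1, which followed each other from library to library, and Aspg, which had the smallest p-values. Each is the 250 bases before the transcript start in RefSeq (build GRCm38.p6), written 5′ to 3′ on the gene's own strand. Capitals mark matches, on either strand, to the STAT motif TTCNNNGAA, the AP-1 motif TGANTCA, the TATA box TATAAA and the CCAAT box CCAAT.
Gfap (chr11:102897201-102897450, minus strand): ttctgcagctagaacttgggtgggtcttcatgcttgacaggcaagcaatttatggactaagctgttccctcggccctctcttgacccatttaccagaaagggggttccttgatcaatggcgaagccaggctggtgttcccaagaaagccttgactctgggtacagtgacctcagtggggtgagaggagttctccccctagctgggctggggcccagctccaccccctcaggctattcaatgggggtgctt
Vim (chr2:13574061-13574310, plus strand): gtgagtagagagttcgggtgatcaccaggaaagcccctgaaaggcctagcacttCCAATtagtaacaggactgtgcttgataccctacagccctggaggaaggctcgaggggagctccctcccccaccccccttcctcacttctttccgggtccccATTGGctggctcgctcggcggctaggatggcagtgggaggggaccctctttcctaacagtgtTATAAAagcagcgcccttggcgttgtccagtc
Emp1 (chr6:135362681-135362930, plus strand): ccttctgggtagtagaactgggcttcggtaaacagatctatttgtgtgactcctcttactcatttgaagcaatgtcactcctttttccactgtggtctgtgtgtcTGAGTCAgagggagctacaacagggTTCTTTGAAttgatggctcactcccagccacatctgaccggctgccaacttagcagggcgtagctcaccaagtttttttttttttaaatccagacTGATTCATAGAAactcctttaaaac
Aspg (chr12:112106433-112106682, plus strand): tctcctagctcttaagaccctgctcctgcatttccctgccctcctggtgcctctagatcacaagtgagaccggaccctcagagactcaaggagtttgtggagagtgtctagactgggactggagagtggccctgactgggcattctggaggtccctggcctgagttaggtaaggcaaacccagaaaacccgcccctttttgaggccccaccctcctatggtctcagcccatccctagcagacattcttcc
RefSeq gave 13 upstream windows for the 10 genes. The STAT motif was in 7.02% of all 32851 upstream windows, and among the 10 genes only Emp1 matched it, with matches that begin at -120 and -22 relative to the start. The AP-1 motif was in 6.75% of all windows and again Emp1 was the only one of the 10 with it, beginning at -145 and -25. The later AP-1 match overlaps the later STAT match. The TATA box letters, found in 12.4% of all windows, were present in Vim (beginning at -32), Srgn (-98) and, on the other strand, Ggta1 (-220). The CCAAT box, in 33.9%, was present in Vim, Fbln5 and Timp1. The Gfap and Aspg windows held none of the 4 letter strings. These are letter matches in a short window and carry no measurement of binding.

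Gfap stood far above the other 9 genes. Set per kilobase of gene length, so that genes can be compared, the mean level over 20 libraries was 77.5 CPM per kb for Gfap and 9.48 for Vim, and both steps of that order (Gfap above Vim, Vim above S1pr3) held in 20 of 20 libraries. S1pr3 (2.12 CPM per kb), Srgn (2.04), Timp1 (1.42), Aspg (1.20), Ggta1 (0.992), Fbln5 (0.949), Cd44 (0.621) and Emp1 (0.419) followed. Each neighbouring pair among these 8 differed by less than the sum of their SDs. S1pr3, for example, lay above Srgn in 12 of 20 libraries.

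**Figure D1:**
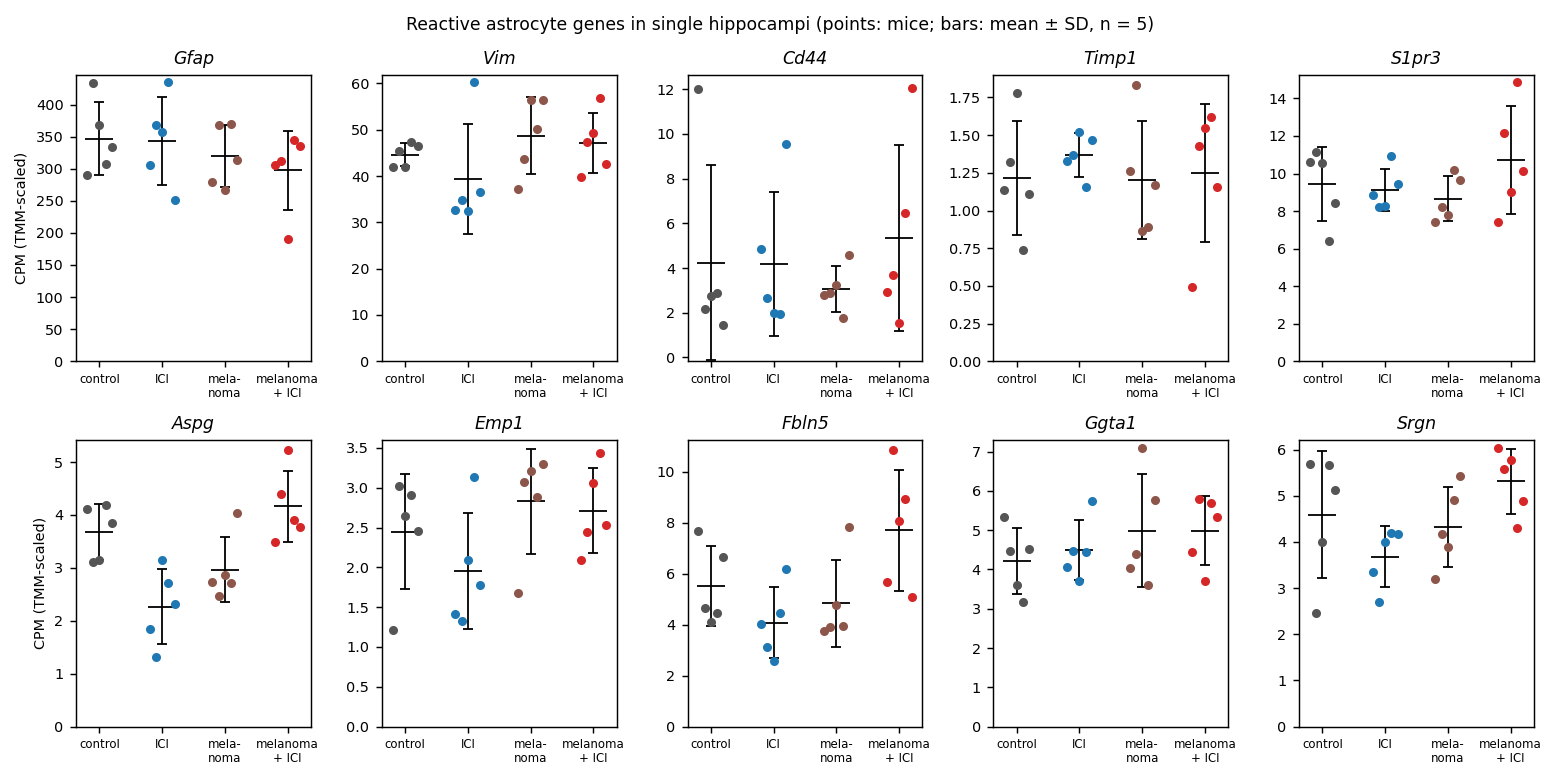
Level of each of the 10 genes in single hippocampi. Each panel has the 4 groups on the horizontal axis and CPM on the vertical axis; points are mice, bars the mean ± SD (n = 5). Gfap lay between 190.3 and 434.6 CPM in all 20 libraries, and the ICI mice lay below all melanoma plus ICI mice for Aspg (1.32 to 3.14 and 3.49 to 5.23 CPM) and for Srgn (2.69 to 4.20 and 4.30 to 6.04 CPM).

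None of the 10 genes changed past the adjusted threshold in any of 6 comparisons. The comparisons were ICI against control, melanoma against control, melanoma plus ICI against control, against melanoma and against ICI, and the interaction, which asks whether ICI acts differently with and without a tumour. In edgeR's quasi-likelihood test, with Benjamini-Hochberg adjustment over 18427 genes, 0 of 10 had an adjusted p under 0.05 in each comparison, and the background was 0% of all genes in each. With limma voom 0 of 10 passed in any comparison, and with DESeq2 1 passed, Aspg in the interaction, where DESeq2 called 46 of 18436 genes (0.25%). At an unadjusted p under 0.05 the edgeR counts were 1 of 10 in ICI against control (5.23% of all genes), 0 in melanoma against control (5.11%) and 0 in melanoma plus ICI against control (2.38%). They were 2 in melanoma plus ICI against melanoma (5.5%), 3 in melanoma plus ICI against ICI (8.63%) and 3 in the interaction (10.3%). Those genes were Aspg, Fbln5 and Srgn.

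The median log2 fold change of the 10 genes was -0.11 in ICI against control, where all genes had a median of -0.01. It was -0.10 in melanoma against control (all genes -0.01) and 0.18 in melanoma plus ICI against control (all genes 0.00). It was 0.18 in melanoma plus ICI against melanoma (all genes 0.02), 0.30 in melanoma plus ICI against ICI and 0.31 in the interaction (all genes 0.02 in both). The melanoma plus ICI comparisons with control, melanoma and ICI share the same 5 treated libraries, and the 3 comparisons with control share the same 5 control libraries.

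**Figure D2:**
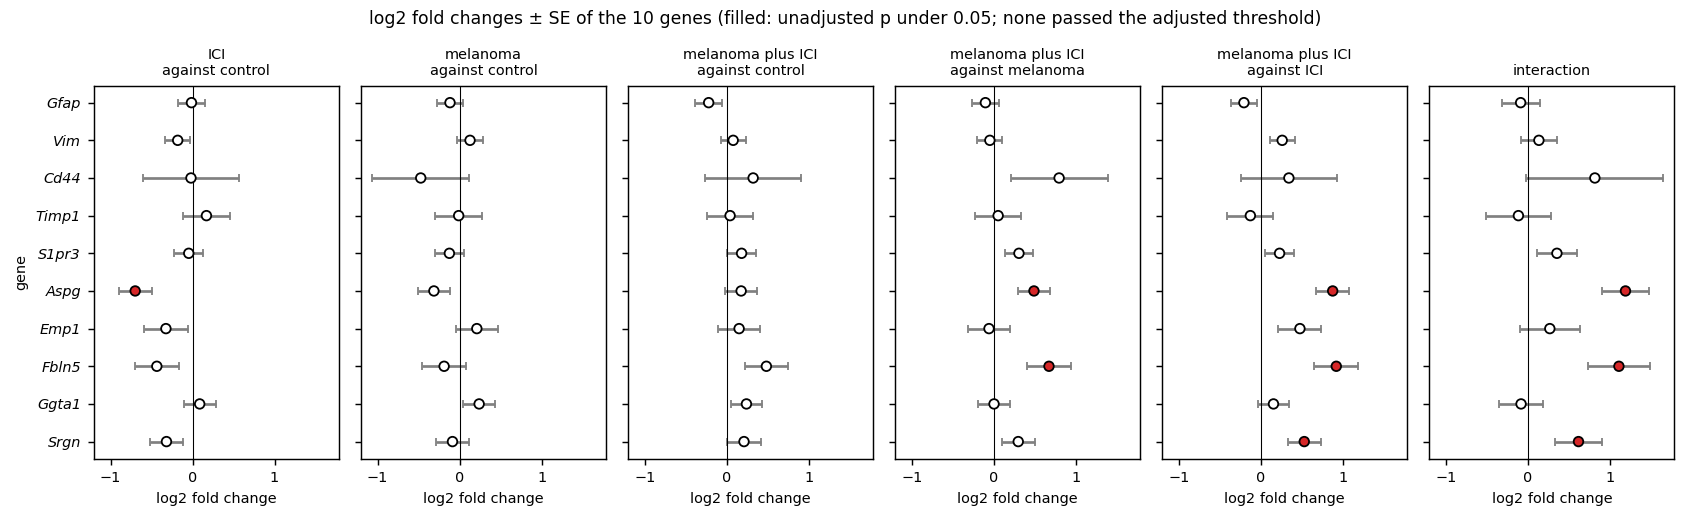
log2 fold change ± SE of the 10 genes in the 6 comparisons, from the edgeR fit over 20 libraries; filled points have an unadjusted p under 0.05. Aspg is filled in 4 panels, Fbln5 in 3 and Srgn in 2, and no gene passed the adjusted threshold.

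The filament genes come first. GFAP is the main intermediate filament protein of mature astrocytes, and its amount in immunostaining is the usual sign of a reactive astrocyte. Gfap was at 289.8, 433.4, 368.7, 307.1 and 334 CPM in the 5 control mice and at 306.5, 367.7, 356.8, 434.6 and 251.6 CPM in the 5 ICI mice. It was at 279.6, 367.6, 266.2, 370.3 and 313.9 CPM in melanoma mice and at 305.8, 312.4, 190.3, 344.6 and 334.7 CPM in melanoma plus ICI mice. All 4 groups overlapped, and the lowest value of all was replicate 3 of melanoma plus ICI.

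The Gfap means were 346.6 ± 56.9 CPM in control mice, 343.4 ± 68.7 with ICI, 319.5 ± 48.4 with melanoma and 297.6 ± 62.0 with melanoma plus ICI (SD, n = 5 each). The log2 fold changes were -0.01 for ICI against control, -0.12 for melanoma against control and -0.22 for melanoma plus ICI against control, each with an SE of 0.16. They were -0.10 against melanoma, -0.21 against ICI and -0.09 in the interaction (SE 0.16, 0.16 and 0.23). By edgeR's quasi-likelihood test the adjusted p-values ran from 0.677 to 1.00. Leaving out 1 library gave melanoma plus ICI values of -0.28 to -0.10 against control and -0.30 to -0.08 against ICI. The smallest in size came without melanoma plus ICI replicate 3 in both. With 4 tissue scores in the model, for choroid plexus, meninges, striatum and dentate gyrus, the Gfap fold change in melanoma against control was 0.21 on the log2 scale, of the opposite sign. With the endothelial score, added after the data were seen, it was -0.30 (unadjusted p = 0.0955 by edgeR) in ICI against control. With the astrocyte score it was -0.32 (unadjusted p = 0.0587) in melanoma plus ICI against control.

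Vimentin is the second filament protein of reactive astrocytes and is also made by endothelium, ependyma and fibroblasts. Vim was at 44.7 ± 2.47 CPM in control mice, 39.4 ± 11.8 with ICI, 48.8 ± 8.36 with melanoma and 47.1 ± 6.57 with melanoma plus ICI (SD, n = 5 each). In the ICI group 4 mice lay at 32.4 to 36.6 CPM and replicate 4 at 60.3 CPM, the highest Vim value of the 20. The log2 fold changes of Vim ran from -0.18, in ICI against control, to 0.26, in melanoma plus ICI against ICI. Without ICI replicate 4 these were -0.39 (unadjusted p = 0.00307, adjusted p = 0.817 by edgeR) and 0.46 (unadjusted p = 0.000785, adjusted p = 0.596), and the interaction was 0.34 in place of 0.13 (unadjusted p = 0.0417). With all 20 libraries and the meningeal score as a covariate, added after the data were seen, they were -0.07 (unadjusted p = 0.644) in ICI against control, 0.04 (unadjusted p = 0.819) against ICI and -0.12 in the interaction. Of 5 cytoskeletal partners (Nes, Synm, Des, Lmna and Plec), 0 passed the adjusted threshold in any comparison. Des, a muscle filament also made by mural cells, was the only one of them with an unadjusted p under 0.05, in 4 comparisons. On the log2 scale it was at 1.11 in the interaction, -0.66 for ICI against control, -0.56 for melanoma against control and 0.56 when melanoma plus ICI was set against ICI, each with an adjusted p above the threshold.

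The surface and matrix genes varied more between mice. CD44 is a receptor for hyaluronan. Cd44 was at 12.0, 2.17, 2.73, 2.86 and 1.44 CPM in control and at 4.85, 2.65, 2.00, 1.94 and 9.56 CPM in ICI mice. It was at 2.78, 2.90, 3.25, 1.78 and 4.60 CPM in melanoma and at 2.92, 3.67, 1.55, 6.48 and 12.1 CPM in melanoma plus ICI mice. The 3 libraries above 9 CPM came from control, ICI and melanoma plus ICI, 1 from each, and the groups overlapped. The log2 fold changes of Cd44 lay between -0.47 and 0.82 and none had an unadjusted p under 0.05. They rested on single libraries. Without control replicate 1 the interaction was -0.07 in place of 0.82, ICI against control 0.87 in place of -0.02, and melanoma against control 0.41 in place of -0.47. Without that library melanoma plus ICI against control was 1.21 in place of 0.32 (unadjusted p = 0.0364, adjusted p = 0.941 by edgeR). Without ICI replicate 5 ICI against control was -0.57, and without melanoma plus ICI replicate 5 the fold change was -0.23 against control, -0.21 against ICI and 0.25 in place of 0.80 against melanoma. Of 10 hyaluronan synthases, proteoglycans and other matrix partners of CD44, 0 passed the adjusted threshold in any comparison. There were 2 under an unadjusted p of 0.05 somewhere: Vcan in melanoma plus ICI against melanoma (log2 fold change -0.49) and the interaction (-0.74), and Bcan in melanoma plus ICI against control (-0.18).

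TIMP1 inhibits matrix metalloproteinases. Timp1 was low in every group, at 1.22 ± 0.378 CPM in control mice, 1.37 ± 0.143 with ICI, 1.21 ± 0.392 with melanoma and 1.25 ± 0.458 with melanoma plus ICI (SD, n = 5 each), and its log2 fold changes lay between -0.13 and 0.17. Of 8 other TIMPs and metalloproteinases 7 were tested and 0 passed the adjusted threshold. All 7 had higher values in melanoma plus ICI than in ICI mice, with a median log2 fold change of 0.27 (all genes 0.02, 54.99% of them higher). All 7 were also higher than in melanoma mice, with a median of 0.38 (53.5% of all genes higher). They were above 0 in the interaction, with a median of 0.27 (52.75% of all genes). In these 3 comparisons all 9 choroid plexus markers were higher too, with medians of 1.337, 1.385 and 2.759. So were all 9 meningeal markers (medians 0.91, 0.68 and 1.17) and all 8 mural cell markers (0.30, 0.13 and 0.51). The part of tissue composition in the TIMP and metalloproteinase values was not tested. Mmp14, a membrane-bound metalloproteinase, had the smallest p of these, with 0.46 (SE 0.13) on the log2 scale against ICI, -0.39 in ICI against control and 0.82 (SE 0.18, unadjusted p = 0.000194, adjusted p = 0.253) in the interaction by edgeR.

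Fibulin-5, an elastic fibre protein, had the largest fold change of the 10 against ICI. Fbln5 was at 7.68, 4.64, 4.10, 4.47 and 6.65 CPM in control and at 4.03, 3.13, 2.57, 4.45 and 6.18 CPM in ICI mice. It was at 3.74, 3.93, 4.77, 3.95 and 7.81 CPM in melanoma and at 5.67, 10.8, 8.05, 8.92 and 5.07 CPM in melanoma plus ICI mice. The 3 highest values were melanoma plus ICI mice, but the lowest of that group lay inside the range of each other group.

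Fbln5 had a log2 fold change of 0.92 (SE 0.27) in melanoma plus ICI against ICI, 0.67 (SE 0.27) against melanoma and 1.11 (SE 0.38) in the interaction. The edgeR unadjusted p-values were 0.00283, 0.0207 and 0.00864, and the adjusted p-values 0.563, 0.825 and 0.476. Meningeal and fibroblast markers (Col1a1, Col1a2, Col3a1, Dcn, Lum, Igf2, Slc6a13, Aldh1a2 and Ptgds) differed between the same groups. All 9 had higher values in melanoma plus ICI than in ICI mice and 7 had an unadjusted p under 0.05. Their summed level was 188.6 to 811.4 CPM in ICI, 700.3 to 1156 in melanoma plus ICI, 419.9 to 1262 in control and 368 to 1090 in melanoma mice, and none was at 0 in a whole group. With the mean log2 level of these 9 markers as a covariate, an alternative added after the data were seen, the Fbln5 fold change against ICI was 0.34 (unadjusted p = 0.0785 by edgeR). With the 4 tissue scores it was 0.28 (unadjusted p = 0.181). Against melanoma the Fbln5 value was 0.31 with the meningeal score, 0.38 with the 4 tissue scores and 0.44 with the CA3 score (unadjusted p = 0.0784, 0.0685 and 0.0816). In the interaction it was 0.41, 0.50 and 0.84 (unadjusted p = 0.114, 0.0883 and 0.0224).

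Serglycin is the proteoglycan core of secretory granules in blood-derived cells and is also made by endothelium. Srgn was at 5.68, 2.47, 4.01, 5.67 and 5.13 CPM in control and at 3.35, 2.69, 4.001, 4.20 and 4.18 CPM in ICI mice. It was at 3.20, 4.18, 3.90, 4.92 and 5.43 CPM in melanoma and at 6.04, 5.58, 5.77, 4.30 and 4.89 CPM in melanoma plus ICI mice. All 5 melanoma plus ICI mice lay above all 5 ICI mice, with 4.30 against 4.20 CPM at the nearest, while both overlapped control and melanoma. The log2 fold change of Srgn against ICI was 0.53 (SE 0.20, unadjusted p = 0.0172, adjusted p = 0.563 by edgeR). In the interaction it was 0.62 (SE 0.29, unadjusted p = 0.0444, adjusted p = 0.485). With the 4 tissue scores these were 0.27 (unadjusted p = 0.302) and 0.33 (unadjusted p = 0.355). Endothelial markers moved with Srgn, 9 of 9 lower in ICI than in control and 9 of 9 higher in melanoma plus ICI than in ICI mice (levels are given with Aspg). Over 20 libraries Srgn had r = 0.56 with the endothelial list, past the threshold by neither measure (permutation adjusted p = 0.0592; rho = 0.60, adjusted p = 0.0515; r = 0.51 without the 2 farthest). Of 8 blood leukocyte markers 2 had enough counts to be tested, Ptprc and Cd79a, and both were higher in melanoma plus ICI than in ICI mice at an unadjusted p under 0.05 (log2 fold change 0.36 and 0.85, adjusted p = 0.57 for both by edgeR). The 8 summed to 4.14 to 5.95 CPM in melanoma plus ICI, 2.95 to 4.62 in ICI, 3.46 to 5.21 in control and 3.58 to 5.34 in melanoma mice. The 5 red blood cell markers were all higher against ICI too, 1 of them at an unadjusted p under 0.05. The part of blood cells in the Srgn values was not tested. With the endothelial score, added after the data were seen, Srgn was at 0.32 against ICI (unadjusted p = 0.166 by edgeR) and 0.34 in the interaction (unadjusted p = 0.28). In ICI against control it was -0.08 in place of -0.32.

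S1PR3 is a receptor for sphingosine 1-phosphate, a lipid signal of vessels and glia. S1pr3 was at 9.44 ± 1.98 CPM in control mice, 9.14 ± 1.12 with ICI, 8.66 ± 1.21 with melanoma and 10.7 ± 2.89 with melanoma plus ICI (SD, n = 5 each). Its values ran from 6.41 CPM, in a control mouse, to 14.9 CPM, in a melanoma plus ICI mouse, and the groups overlapped. The log2 fold changes lay between -0.13 and 0.35, none with an unadjusted p under 0.05. Against melanoma S1pr3 was at 0.31, which ran from -0.01 with the 4 tissue scores to 0.42 with limma voom (unadjusted p = 0.00531, adjusted p = 0.18). An unadjusted p under 0.05 came in 3 of 32 alternatives for this value, among them the fit without melanoma plus ICI replicate 1 (0.41). Without melanoma plus ICI replicate 4 it was 0.16. Among 8 other genes of sphingosine 1-phosphate signalling 0 passed the adjusted threshold. S1pr4, a receptor of lymphoid cells, was at -1.15 (SE 0.28) on the log2 scale in melanoma against control, with an adjusted p of 0.642 by edgeR, and its groups of 5 did not overlap, beside 1.04% of all genes. S1pr4 was at 0.80 against melanoma and 1.22 in the interaction. Spns2, a sphingosine 1-phosphate transporter, was at -0.30 against melanoma, -0.32 against ICI and -0.43 in the interaction. These were the list's other values with an unadjusted p under 0.05.

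The enzymes are Aspg and Ggta1. ASPG is an asparaginase and lysophospholipase. Aspg was at 4.12, 3.11, 3.14, 4.20 and 3.86 CPM in control mice and at 1.85, 1.32, 3.14, 2.72 and 2.31 CPM in ICI mice. It was at 2.73, 2.48, 2.86, 2.72 and 4.04 CPM in melanoma and at 3.49, 4.40, 5.23, 3.91 and 3.78 CPM in melanoma plus ICI mice. Control and melanoma plus ICI mice overlapped, 4 of 5 ICI mice lay below all control mice, and every melanoma plus ICI mouse lay above every ICI mouse.

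Aspg means were 3.68 ± 0.526, 2.27 ± 0.714, 2.96 ± 0.616 and 4.16 ± 0.680 CPM in control, ICI, melanoma and melanoma plus ICI (SD, n = 5 each). The log2 fold change was -0.70 (SE 0.20, unadjusted p = 0.00246, adjusted p = 0.767 by edgeR) in ICI against control. It was 0.49 (SE 0.20, unadjusted p = 0.0227, adjusted p = 0.825) in melanoma plus ICI against melanoma. Against ICI it was 0.88 (SE 0.20, unadjusted p = 0.000319, adjusted p = 0.563). Aspg and Srgn were the 2 of 10 genes whose groups of 5 did not overlap there, beside 1.45% of all genes. In the other pairs of groups 0 of 10 were without overlap, where all genes gave 0.885% in ICI against control and 1.04% in melanoma against control. For melanoma plus ICI all genes gave 0.304% against control and 1.54% against melanoma.

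The interaction for Aspg was 1.19 on the log2 scale (SE 0.28, unadjusted p = 0.000447, adjusted p = 0.253 by edgeR), and ICI mice were lower than control while melanoma plus ICI mice were higher than melanoma. DESeq2 gave 1.20 with an adjusted p of 0.0247, and the adjusted p over all 31 alternatives for this value ran from 0.0247 to 0.527. The 9 endothelial markers (Cldn5, Pecam1, Flt1, Cdh5, Tie1, Tek, Ly6c1, Esam and Slco1a4) all had lower values in ICI than in control and higher values in melanoma plus ICI than in ICI mice, 3 of 9 at an unadjusted p under 0.05 in each. Their summed level was 185.8 to 232.9 CPM in ICI, 225.9 to 277.6 in control, 215.7 to 265.4 in melanoma and 225.2 to 318.3 in melanoma plus ICI mice. Mural cell markers moved in the same way, 8 of 8 lower in ICI than in control (3 at an unadjusted p under 0.05) and 8 of 8 higher in melanoma plus ICI than in ICI mice (4 of 8). They summed to 164.7 to 219.5 CPM in ICI, 205.3 to 283.6 in control, 171.7 to 255.7 in melanoma and 208.5 to 280.5 in melanoma plus ICI mice, and their part in the Aspg values was not tested. The meningeal markers given with Fbln5 also moved this way. Both of these comparisons use the same 5 ICI libraries. In melanoma plus ICI against control 5 endothelial markers were higher and 4 lower, with a median log2 fold change of 0.03. There 5 mural markers were higher and 3 lower (median 0.01), and all 9 meningeal markers were higher (median 0.38). With the meningeal score the Aspg fold change was -0.63 (SE 0.22) in ICI against control, 0.77 (SE 0.24) against ICI and 1.06 (SE 0.32) in the interaction. With the endothelial score as a covariate, added after the data were seen, the Aspg fold change was -0.49 (SE 0.23) in ICI against control, 0.67 (SE 0.22) against ICI and 0.93 (SE 0.31) in the interaction. With the astrocyte score the interaction was 1.14 (SE 0.28), and with the 4 tissue scores 1.24 (SE 0.36).

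GGTA1 is a galactosyltransferase that puts an alpha-galactose cap on glycans in mice. Ggta1 was at 4.22 ± 0.842 CPM in control mice, 4.49 ± 0.762 with ICI, 4.98 ± 1.44 with melanoma and 4.99 ± 0.890 with melanoma plus ICI (SD, n = 5 each), with log2 fold changes between -0.08 and 0.24. EMP1 is a membrane protein of the PMP22 family. Emp1 was at 2.45 ± 0.724, 1.95 ± 0.728, 2.83 ± 0.660 and 2.71 ± 0.531 CPM in the same order of groups, with log2 fold changes between -0.32 and 0.48. Without ICI replicate 4 Emp1 was at -0.57 (unadjusted p = 0.0394, adjusted p = 0.817 by edgeR) in ICI against control and at 0.71 (unadjusted p = 0.0123, adjusted p = 0.709) in melanoma plus ICI against ICI. Without control replicate 1 melanoma against control was 0.03 in place of 0.21. All groups overlapped for both genes.

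Several of the genes followed marker lists of particular tissues or cells from library to library. The log2 level of each gene was compared over 20 libraries with the mean log2 level of 13 marker lists, 130 relations in all, with permutation p-values adjusted over the 130. Of these 20 passed, 16 of them positive, and 12 also passed by Spearman's rho. Lists for striatum and red blood cells fell into separate clusters of libraries and were left out.

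Gfap followed markers of the pyramidal field CA3 (Iyd, Grik4, Bok, Nptx1 and Homer3), with Pearson r = 0.85 and rho = 0.83, each with a permutation adjusted p under the threshold (0.000433 and 0.00065). It was 0.80 without the 2 libraries farthest from the median and 0.86 after the group means were removed. With dentate gyrus markers Gfap had r = 0.77 and rho = 0.65 (permutation adjusted p = 0.0026 and 0.0265), and r = 0.60 without the 2 farthest libraries. The summed level of the CA3 markers was 480 to 725.9 CPM in melanoma plus ICI, 560.7 to 1203 in melanoma, 490.1 to 1107 in control and 432 to 1334 in ICI mice. The 6 dentate gyrus markers summed to 133.4 to 256.8, 186.8 to 436.9, 150.7 to 648.9 and 192.8 to 644.6 CPM in the same order. All 6 were lower in melanoma plus ICI than in control mice, 3 at an unadjusted p under 0.05 by edgeR (2.38% of all genes). All 6 were also lower than in ICI mice, 4 at that level (8.63% of all genes). With the CA3 score as a covariate, added after the data were seen, the Gfap fold changes were -0.05 against control, 0.10 against melanoma and 0.01 against ICI on the log2 scale. With the astrocyte list Gfap had r = -0.38 (permutation adjusted p = 0.261; rho = -0.20, adjusted p = 0.647; r = -0.08 without the 2 farthest).

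**Figure D3:**
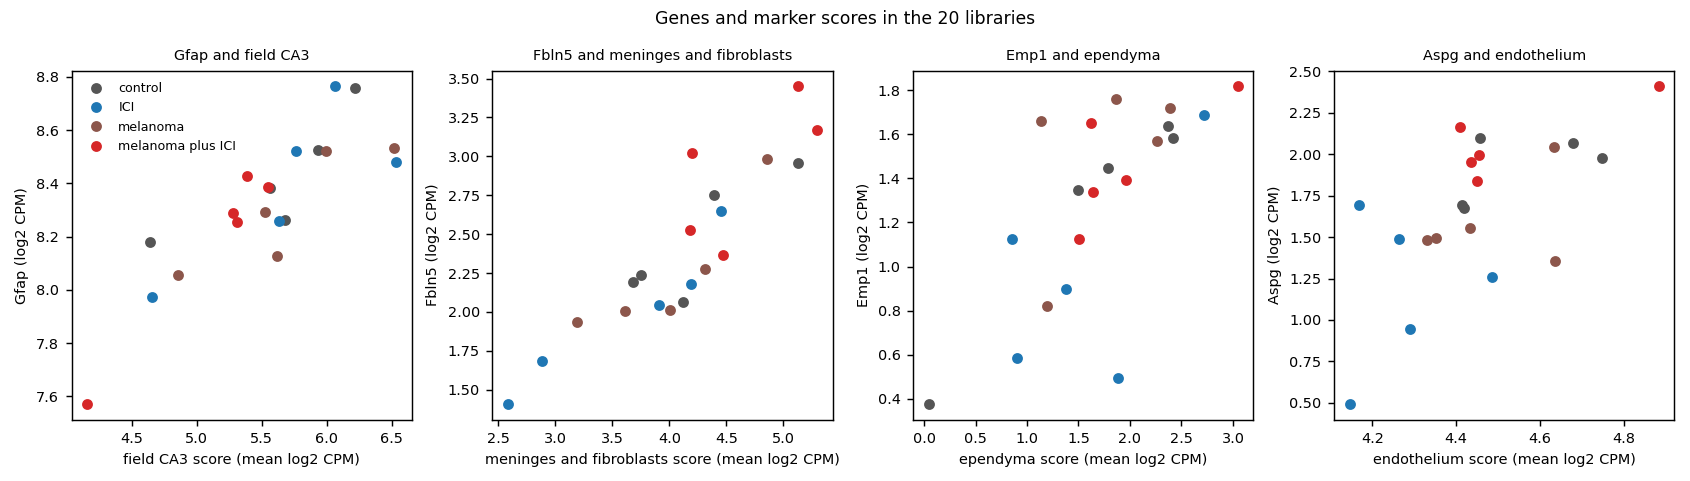
log2 CPM of 4 genes (vertical axes) against the mean log2 CPM of a marker list (horizontal axes), 1 point per library, coloured by group. Gfap with CA3 markers (r = 0.85), Fbln5 with meningeal markers (r = 0.90), Emp1 with ependymal markers (r = 0.72) and Aspg with endothelial markers (r = 0.64); melanoma plus ICI replicate 3 lies lowest for both Gfap and CA3.

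Fbln5 followed meningeal and fibroblast markers, with r = 0.90 and rho = 0.90 (permutation adjusted p = 0.000433 and 0.00065), 0.85 without the 2 farthest libraries and 0.86 within groups. It also followed mural cell markers, with r = 0.86 and rho = 0.79 (permutation adjusted p = 0.000433 and 0.0026; 0.85 without the 2 farthest libraries). With blood leukocyte markers, of which 2 of 8 were tested, r and rho were both 0.77 (permutation adjusted p = 0.0026 for both). With endothelial markers both were 0.65 (permutation adjusted p = 0.0277 and 0.0286). Fbln5 was negative with CA3 markers (r = -0.66, rho = -0.77, permutation adjusted p = 0.027 and 0.0026). It was negative with CA1 markers too (r = -0.64, permutation adjusted p = 0.0277; rho = -0.61, adjusted p = 0.0501). Emp1 and Vim both followed ependymal markers such as Foxj1 and Ccdc153. For Emp1 r was 0.72 and rho 0.66 (permutation adjusted p = 0.00607 and 0.0259; r = 0.57 without the 2 farthest). For Vim r was 0.68 and rho 0.72 (permutation adjusted p = 0.0206 and 0.00845; r = 0.74 without the 2 farthest). Vim also had r = 0.58 with the meningeal list (permutation adjusted p = 0.0486; rho = 0.48, adjusted p = 0.119; r = 0.37 without the 2 farthest). Emp1 had r = 0.61 with oligodendrocyte markers (permutation adjusted p = 0.0369; rho = 0.59, adjusted p = 0.0607; r = 0.58 without the 2 farthest).

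S1pr3 and Ggta1 each followed the meningeal list, with r = 0.62 and 0.61 (permutation adjusted p = 0.0351 and 0.0371), and Ggta1 also by rho (adjusted p = 0.0123). Without the 2 farthest libraries r was 0.66 and 0.65. S1pr3 also had r = 0.60 with choroid plexus markers (permutation adjusted p = 0.0376; rho = 0.56, adjusted p = 0.0738; r = 0.76 without the 2 farthest). Aspg had r = 0.64 with endothelial markers (permutation adjusted p = 0.0289; rho = 0.55, adjusted p = 0.0764), which was 0.54 without the 2 farthest libraries and 0.41 after the group means were removed. Aspg also had r = 0.62 and rho = 0.61 with mural cell markers (permutation adjusted p = 0.0289 and 0.047; r = 0.59 without the 2 farthest, 0.44 after centring). With blood leukocyte markers, of which 2 of 8 were tested, it had r = 0.59 and rho = 0.70 (permutation adjusted p = 0.0376 and 0.013; r = 0.62 without the 2 farthest, 0.29 after centring). Of these 3 lists the endothelial one missed the threshold by rho. Srgn had r = -0.59 with dentate gyrus markers (permutation adjusted p = 0.0412; rho = -0.57, adjusted p = 0.0707; r = -0.42 without the 2 farthest). Cd44 had r = -0.59 with oligodendrocyte markers (permutation adjusted p = 0.0424; rho = -0.53, adjusted p = 0.0903; r = -0.52 without the 2 farthest). Timp1 passed with none of the 13 lists.

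The 10 genes did not vary as 1 block. Of 45 pairs among them 33 had r above 0, with a median of 0.16, and 3 passed a permutation test adjusted over the 45. Vim and Emp1 had r = 0.79 and rho = 0.85 (permutation adjusted p = 0.00225 and 0.00045), and r = 0.72 after group means were removed. Aspg and Srgn had r = 0.73 and rho = 0.74 (permutation adjusted p = 0.0063 and 0.00743), and 0.64 after group means were removed. Aspg and Fbln5 had r = 0.66 and rho = 0.72 (permutation adjusted p = 0.0207 and 0.0101), and 0.40 after group means were removed. Without the 2 farthest libraries these 3 were 0.79, 0.61 and 0.64. Gfap had negative r with Fbln5 (-0.41), Srgn (-0.40) and Aspg (-0.33), none past the threshold, and 0.07 with Vim.

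**Figure D4:**
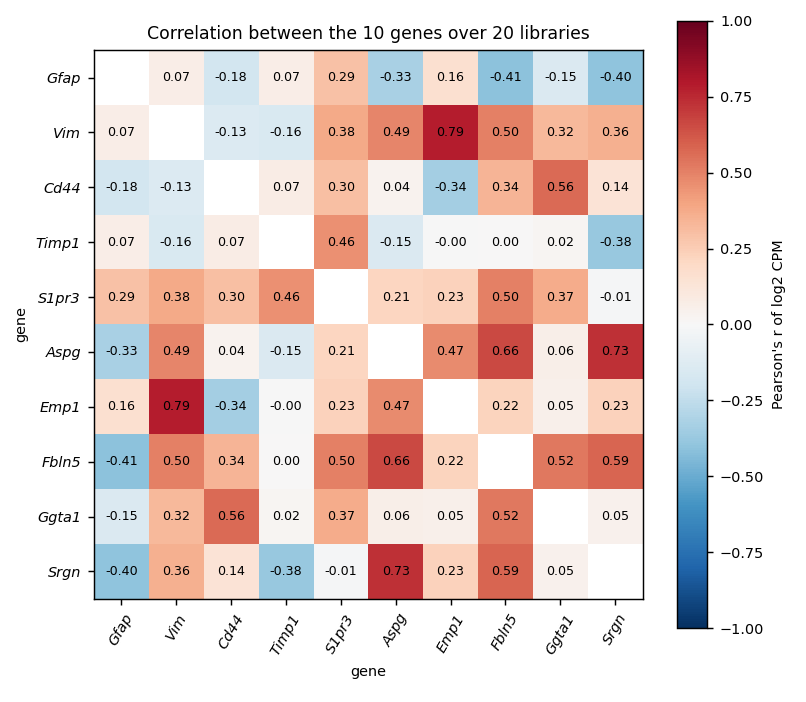
Pearson's r of log2 CPM between each pair of the 10 genes over 20 libraries; both axes list the genes and colour gives r. Vim with Emp1 (0.79) and Aspg with Srgn (0.73) are the highest values, and the Gfap row holds the lowest, with Fbln5 (-0.41).

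The genes whose levels were most like each member were sought among 15475 tested genes with a mean of at least 1 CPM, as a description over 20 libraries. For Gfap these were Nr3c2, the mineralocorticoid receptor (r = 0.90), Pygo1 (0.89) and Galnt17 (0.89). For Fbln5 they included Efemp1, another fibulin (0.925), and Col3a1, a fibrillar collagen of the meningeal list (0.92). Aspg was closest to Cavin1, a caveolar coat gene (0.81), Lyz2, a myeloid lysozyme (0.79), and H2-K1, an MHC class I gene (0.77). Srgn was closest to Aanat (0.81), Maf (0.81) and Nupr1 (0.80). Vim was closest to Trip6 (0.87), Apod (0.83) and Kif19a (0.83), and Emp1 to Tmem123 (0.83), Myl12a (0.82) and Pdia4 (0.80). Cd44 was closest to Angpt1, angiopoietin 1 (0.95), Cbln4 (0.90) and Sec14l3 (0.89). S1pr3 was closest to Ddr2, a collagen receptor (0.90), Gm13111 (0.88) and Prelp (0.87), Ggta1 to Mdm1 (0.86), Phf19 (0.81) and Ccdc151 (0.81), and Timp1 to Mon1b, Gm16364 and Ankrd61 (0.82 each).

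The other reactive astrocyte genes were counted in the same way. Of 28 listed, 25 were tested and 0 passed the adjusted threshold in any comparison by edgeR. At an unadjusted p under 0.05 6 of 25 were higher and 2 lower in melanoma plus ICI against ICI, 0 higher and 2 lower in ICI against control, and melanoma against control had 2 higher and 0 lower. Of the 25, in the interaction 3 were higher and 1 was lower. For melanoma plus ICI against melanoma 1 was higher and 2 were lower, and against control 1 was higher and 0 were lower. The shares of all genes are those given above. H2-T23, a nonclassical MHC class I gene, was at 11.7 ± 4.16 CPM in control mice, 6.91 ± 1.59 with ICI, 9.73 ± 1.83 with melanoma and 14.1 ± 6.11 with melanoma plus ICI (SD, n = 5 each). Its log2 fold changes were -0.76 (SE 0.27) in ICI against control, 1.03 (SE 0.27) against ICI and 1.29 (SE 0.38) in the interaction, with edgeR adjusted p-values of 0.767, 0.563 and 0.432. The endothelial, mural and meningeal markers given above were also lower in ICI than in control and higher in melanoma plus ICI than in ICI mice. Their part in the values of H2-T23 and the other listed genes was not tested. Steap4, a metalloreductase, had -1.87 (SE 0.71) in ICI against control, at 1.09 CPM in control and 0.290 in ICI mice.

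Osmr, the oncostatin M receptor, had 0.63 (SE 0.19, adjusted p = 0.734 by edgeR) in melanoma against control, with all 5 melanoma mice (7.19 to 8.83 CPM) above all 5 control mice (2.77 to 6.03 CPM), beside 1.04% of all genes whose groups did not overlap. Lcn2, lipocalin 2, ran from 0.213 to 2.88 CPM in melanoma and from 0.0790 to 3.37 CPM in melanoma plus ICI mice, against 0.0923 to 0.365 in control and 0 to 0.172 in ICI mice. Its log2 fold changes were 2.82 (SE 0.99) and 2.67 (SE 0.99) against control, with adjusted p-values of 0.813 and 1.00 by edgeR. Melanoma plus ICI against ICI gave 4.15 (SE 1.17, unadjusted p = 0.00208, adjusted p = 0.563), against a group with very few counts. Fkbp5, a glucocorticoid-induced co-chaperone, had -0.55 (SE 0.17) in melanoma plus ICI against melanoma and -0.76 (SE 0.24) in the interaction. Cd109, a surface protein, had -0.94 (SE 0.49) against control and -1.12 (SE 0.49) against melanoma.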

How the data were processed

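Bulk RNA sequencing counts of 20 hippocampi were used, 1 table per mouse, grouped by the sample titles. The deposited values are raw counts per gene, per the labels, with coordinates and gene lengths per the file headers. STAR 2.5.2b and DESeq2 1.16.1 are named per the submitters' processing notes, without their roles. The build, the counting program and its strand setting are not given in the sources used here. Of 49671 identifiers 49326 occur in GENCODE M21 (GRCm38), which gave the symbols, and 45128 have the same start and end there. No member shares exons with another gene. Libraries held 21990624 to 25735149 counts. Pairs of libraries in a group differed by a chi-square of 11.5 to 134 per gene, above sampling noise.

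Genes were kept by filterByExpr and scaled by TMM. edgeR 4.0.16 in R 4.3.3 fitted all 20 libraries with 1 mean per group, a robust quasi-likelihood test and Benjamini-Hochberg adjustment over 18427 genes (threshold 0.05). CPM are TMM-scaled, and log2 CPM has a prior count of 2. A marker score is a list's mean log2 CPM. Correlations over libraries used 100000 permutations, two-sided, whose smallest p is 1e-05. Tested on simulated data for melanoma plus ICI against ICI, over 18427 genes, 36% of genes changed 1.5 times, 65.3% changed 2 times and 95.9% changed 4 times were recovered. Each simulated gene was drawn on its own, without the variation that genes share through tissue. These shares therefore do not measure what the real libraries can recover.

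Alternatives were DESeq2 size factors, DESeq2 1.42.0, limma 3.58.1 voom, no filter, only the groups compared, a replicate block, tissue or astrocyte scores as covariates, and leaving out libraries. The 2 libraries said to lie apart are control replicate 4 and melanoma plus ICI replicate 1. The members, lists and tests were chosen with earlier results of these data known. Named by rule were all 10 members, with fold changes for Gfap and those with an unadjusted p under 0.05, the 3 genes most like each (1 of those for Fbln5 is not reported here), and of the other reactive astrocyte genes the 2 with the smallest p per comparison; partner genes named beside them were chosen after their values were seen.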

Additional observations from a re-analysis of the deposited data

Results flagged for a closer look

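Of the 40 combinations of gene and group, 6 held 1 library whose distance from the other 4 was large for the range of the group. Chance flags about 1 in 20 groups of 5. Gfap was at 190.3 CPM in melanoma plus ICI replicate 3, against 305.8 to 344.6 in the other 4. That library also had the lowest CA3 and dentate gyrus scores of the 20 (4.16 and 3.21, mean log2 CPM) and the highest endothelial (4.88) and astrocyte (7.61) scores. Vim was at 60.3 CPM in ICI replicate 4 (32.4 to 36.6 in the others), whose ependymal score of 2.72 was the highest of the ICI group. Cd44 was at 12.0 CPM in control replicate 1, against 1.44 to 2.86 in the others. That library had the lowest ependymal (0.0459) and the highest mural (4.39) score of the 20, and the highest meningeal (5.13) and lowest CA3 (4.64) and dentate gyrus (3.91) scores of its group. Aspg was at 4.04 CPM and Fbln5 at 7.81 CPM in melanoma replicate 5, where the others lay at 2.48 to 2.86 and 3.74 to 4.77. That library had the highest meningeal score of its group, 4.86. Emp1 was at 1.68 CPM in melanoma replicate 1, against 2.88 to 3.30 in the others. Its ependymal score was 1.19, beside 1.14 in melanoma replicate 2, where Emp1 was at 3.07 CPM. The part of tissue composition in these values was not tested.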

How the results depend on the processing

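Over all 10 genes and 6 comparisons, 110 of 1910 recomputed fold changes had the other sign: 27 for Timp1, 22 for Ggta1, 20 for Cd44, 16 for Gfap, 10 for Vim, 8 for S1pr3, 6 for Emp1, 1 for Srgn, and 0 for Aspg and Fbln5. For Gfap 7 of its 16 came with 1 library left out. Of 191 recomputed counts of members past the threshold 1 was other than 0: DESeq2 gave 1 member, Aspg, in the interaction. On the log2 scale Gfap changed sign in the interaction with voom (0.0436), with the endothelium score (0.21) and with the CA3 score (0.17). With 4 tissue scores Gfap was at 0.214 in melanoma against control. For melanoma plus ICI it was then 0.0182 against control and 0.0343 against ICI. The endothelium, meninges and CA3 scores as single covariates were added after the data were seen. With the endothelium score it was 0.0406 against ICI, and with the CA3 score 0.0142 against ICI and 0.10 against melanoma. Leaving out 1 library gave Gfap values of -0.117 to 0.0767 in ICI against control, -0.157 to 0.0286 in melanoma plus ICI against melanoma and -0.179 to 0.0474 in the interaction. The cause was not tested. Over all genes, where edgeR called 0, DESeq2 called 46 for the interaction, 4 for melanoma against control, 1 for ICI against control and 4 when melanoma plus ICI was set against ICI. Voom called 19 for the interaction, 1 for melanoma against control and 25 when melanoma plus ICI was set against melanoma. A fit of only the groups compared called 3 in melanoma against control. The endothelium score gave 1 in melanoma against control and 1 in the interaction, the CA3 score 4 in melanoma against control, and leaving out both libraries that lie apart 1 in the interaction. Leaving out 1 library gave 0 to 3, 0 to 12 and 0 to 11 genes in melanoma against control, melanoma plus ICI against melanoma and the interaction, the highest without melanoma plus ICI replicate 3 in each. With the replicate block 0 members passed and the log2 fold change of Aspg for melanoma plus ICI against ICI was 0.91. Same-numbered libraries had 30 correlations from -0.35 to 0.53, with a median of -0.0047 and 10 over 0.1. The median for other numbers was -0.0112. Of 20 libraries 8 correlated best with their own of the 5 numbers. This does not settle whether the numbers pair animals. The labels do not say that they do, so the numbers were not taken as pairs. At this depth Timp1, near 1 CPM, rests on few reads. In the simulation, which lacked the variation that genes share through tissue, 5 mice per group recovered 36% of 1.5-fold changes.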
